A study of Rattus norvegicus with 2 samples.

Results

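The haemoglobin genes and Alas2 were followed in single-cell RNA sequencing of the rat cochlear duct. They were taken as every row of the 2 deposited count matrices whose symbol was Hba-a2, Hbb, LOC103694857, LOC689064 or Alas2, which gave 6 rows with 5 symbols among 32623 rows. The genes were chosen because earlier results of these data had shown them, so their own levels are given as a description and no test was made of them. The data came from Sprague-Dawley rats at postnatal day 1 (P1) and postnatal day 7 (P7), with no genetic change or drug, and 1 droplet library was made for each age from the pooled tissue of several rats. By the Methods, the stria vascularis, spiral ligament and spiral ganglia were dissected away, visible blood was removed, remaining red cells were treated with a lysis buffer and dead cells were removed on beads. The labels call the cells greater epithelial ridge cells. Among cells that passed the study's limits, however, the cluster led by epithelial markers such as Epcam held 295 of 12779 cells at P1 and 212 of 12581 at P7, and the largest named clusters were led by genes of fibrocytes, other mesenchyme or glia. With 1 library per age, no difference between the ages could be tested, and the intervals given here are exact 95% intervals that cover counting error only.

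Haemoglobin carries oxygen in red blood cells as a tetramer of 2 alpha-type and 2 beta-type globin chains, each holding a haem group. Alas2 is the erythroid form of the enzyme that starts haem synthesis, while its relative Alas1 serves other cells. Globin messenger RNA is made in erythroid precursors in the marrow, liver and spleen and persists in reticulocytes, the young red cells that have lost their nucleus. In tissue broken up for droplets, such RNA can be found inside red cells or free in the suspension, from which any droplet can take up a little.

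The alpha-type chain was represented by Hba-a2, which has a first row (ENSRNOG00000047321) and a second row (ENSRNOG00000029886). The beta-type chains were Hbb (ENSRNOG00000058105), LOC103694857 (ENSRNOG00000061299) and LOC689064 (ENSRNOG00000047098). Alas2 had the identifier ENSRNOG00000000167. Alpha-type and beta-type genes are near-identical copies within their type, so the split of UMIs between rows of a type is uncertain. A UMI (unique molecular identifier) stands for 1 captured transcript, counted at its 3' end.

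RefSeq promoter sequences were found for 4 of the 5 symbols, and they are shown because these genes were found in the same barcodes. Each is the stretch of 150 bases before the annotated start in the GRCr8 build, 5' to 3' on the gene's strand, whereas the count files used the rn6 build. Capitals mark matches on either strand to CCAAT, the CCAAT box, to the CACCC motif known from Klf factors, to GATAA, known from Gata factors, and to the start-site motifs ATAAA and TATAA, which overlap with each other where both match. The Hba-a2 promoter lies at chr10:15829139-15829288 on the minus strand, and which of the 2 Hba-a2 rows it belongs to could not be told from the symbol. Hbb lies at chr1:167663722-167663871 and LOC689064, now named Hbb-bs, at chr1:167631631-167631780, both on the minus strand, and Alas2 at chrX:22895300-22895449 on the plus strand.
Hba-a2: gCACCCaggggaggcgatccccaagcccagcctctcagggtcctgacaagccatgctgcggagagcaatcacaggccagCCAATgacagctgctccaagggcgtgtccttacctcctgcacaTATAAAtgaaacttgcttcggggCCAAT
Hbb: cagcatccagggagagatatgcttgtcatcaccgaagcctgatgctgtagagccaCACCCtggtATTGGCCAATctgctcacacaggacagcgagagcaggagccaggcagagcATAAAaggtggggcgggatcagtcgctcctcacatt
LOC689064: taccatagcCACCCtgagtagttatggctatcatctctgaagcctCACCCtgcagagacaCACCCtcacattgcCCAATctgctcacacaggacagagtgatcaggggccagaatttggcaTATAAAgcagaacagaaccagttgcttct
Alas2: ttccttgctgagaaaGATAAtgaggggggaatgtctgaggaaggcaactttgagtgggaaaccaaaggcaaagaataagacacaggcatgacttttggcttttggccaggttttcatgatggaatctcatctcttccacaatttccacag

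The 3 globin promoters each held the CCAAT box, the CACCC motif and the ATAAA motif within these 150 bases. Of 33469 promoters of this length in the table, 23.5% held CCAAT, 35.2% CACCC and 25.7% ATAAA, and 7.84% held both CCAAT and CACCC. The Alas2 promoter held GATAA, found in 14.2% of promoters, and none of the other motifs. TATAA, found in 15.2%, was in the Hba-a2 and LOC689064 promoters. These matches describe the letters in the window and not the binding of a factor.

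In all, the deposited matrices held 14068 barcodes with 114285848 UMIs at P1 and 14501 barcodes with 101264868 UMIs at P7. The 6 rows took 414527 UMIs, or 3627 CPM (counts scaled to 1e6 UMIs), at P1 and 1734947 UMIs, or 17133 CPM, at P7. LOC103694857 had the most UMIs in both libraries, 161983 at P1 and 810516 at P7. The second Hba-a2 row followed with 110651 and 384343. LOC689064, the first Hba-a2 row and Hbb held fewer, and Alas2 was the lowest with 587 and 3304 UMIs.

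These UMIs were concentrated in few barcodes. Barcodes with at least 10% of their UMIs on the 6 rows, called haemoglobin-rich here, were 122 of 14068 at P1, a share of 0.867% (95% interval 0.721 to 1.03), and 384 of 14501 at P7, a share of 2.65% (2.39 to 2.92). The share at P7 was 3.05 times that at P1 (2.48 to 3.77). Among cells within the limits of the study the shares were closer, 0.297% at P1 and 0.564% at P7. The rich barcodes held 82.7% of all haemoglobin UMIs at P1 and 95.6% at P7. Beside the limit of 10%, the nearest barcodes inside had 10.2% at P1 and 10.1% at P7, and the nearest outside had 9.63% and 9.74%. A further 64 barcodes at P1 and 142 at P7 had 20 or more haemoglobin UMIs but a share under 10%, and are called middle barcodes. The remaining 13882 and 13975 barcodes, called low, had fewer than 20 such UMIs each and together held 2.93% and 3.18% of them. The limit of 20 UMIs was chosen after the values had been seen. A total of 60 barcode sequences occurred in both libraries, of which 4 were rich in at least 1 library and 1 in both. Without them, the level in kept cells was 1615 in place of 1674 CPM at P1 and 4386 in place of 4595 CPM at P7.

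Most rich barcodes were poor in genes. At P1, 82 of the 122 had no more than 500 genes, the lower limit of the study, and so did 312 of the 384 at P7. Among all barcodes excluded for too few genes, haemoglobin-rich ones made up 13.1% at P1 (82 of 627, interval 10.5 to 16.0) and 22.5% at P7 (312 of 1389, interval 20.3 to 24.7). These gene-poor rich barcodes had a median of 2005.5 UMIs at P1 and 4293 at P7, of which haemoglobin took a median of 87.1% and 86.4%. Mitochondrial genes took a median of 0.410% and 1.45% of all their UMIs, haemoglobin included. In the other gene-poor barcodes this was 39.8% and 23.8%, with a median of 0 and 4 haemoglobin UMIs. Since haemoglobin took most UMIs of the rich barcodes and so lowers their mitochondrial share, these shares cannot be compared directly. The highest haemoglobin share of any barcode was 93.8% at P1, in a barcode with 199 genes, and 94.0% at P7, in a barcode with 198 genes.

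**Figure D1:**
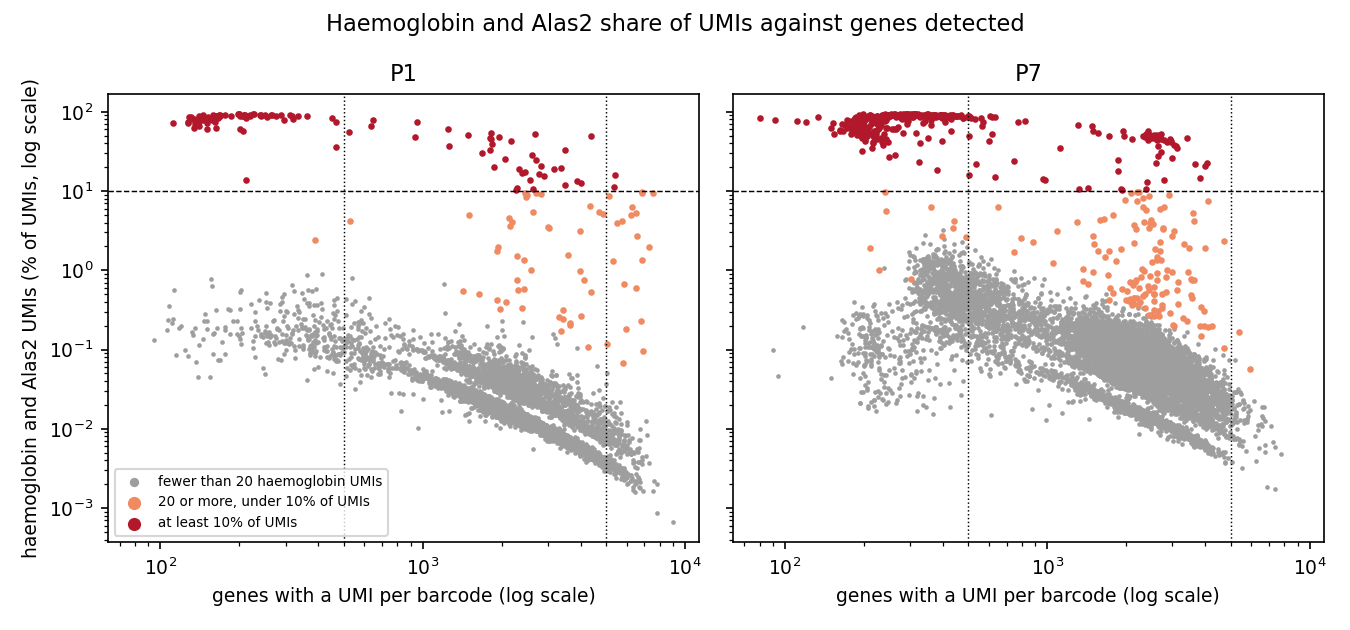
Share of each barcode's UMIs on the haemoglobin genes and Alas2 (percent, log scale) against the number of genes with a UMI (log scale) at P1 and P7, for barcodes with at least 1 such UMI. Each point is a barcode, the dashed line is the limit of 10% and the dotted lines are the gene limits of 500 and 5000; rich barcodes lie mostly left of the lower gene limit, and the low barcodes form bands that fall as the number of genes rises.

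The limits of the study left 38 rich barcodes at P1 and 71 at P7 among the kept cells. They held 139620 of the 164018 haemoglobin UMIs of kept cells at P1, which is 85.1%, and 359198 of 427682 at P7, which is 84.0%. Their median gene number was 2286 at P1 and 2317 at P7, and their haemoglobin share had a median of 29.2% and 45.5%. The barcode with the most haemoglobin at P1 had 20114 such UMIs and 4397 genes and fell in the endothelial-like cluster. Scrublet, which looks for barcodes that hold 2 cells, called none of the 38 kept rich barcodes at P1 and 1 of the 71 at P7. It was run on kept cells only, so the gene-poor rich barcodes were not among those from which it simulates doublets. Its calls therefore cannot tell whether a kept rich barcode held a gene-poor rich one and another cell.

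Other red cell genes were then examined in the rich barcodes. For this, UMIs were given as CPM of the UMIs outside the 6 rows, so that the haemoglobin genes themselves did not set the scale. All 14 erythroid marker genes found among the symbols were below 10 CPM in the other barcodes, the highest being Ahsp with 2.12 CPM at P1 and Nfe2 with 2.59 CPM at P7. A minimum of 10 CPM could be passed by them only through the rich barcodes, so their calls are not counted here and their values are given. The erythroid markers together had 4.86 CPM in other barcodes and 1211 in rich barcodes at P1, and 6.81 and 3836 at P7.

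Ahsp, which encodes a chaperone of free alpha globin, had 354 UMIs in rich barcodes and 240 in all others at P1, a ratio of 420 (355 to 496) on that scale. At P7 it had 1698 and 212 UMIs, a ratio of 1283 (1112 to 1487). Slc4a1, the anion exchanger of the red cell membrane, had 50 UMIs in rich and 24 in other barcodes at P1, and 322 and 20 at P7. Both genes thus had most of their UMIs in under 3% of barcodes. Klf1, an erythroid transcription factor, had 19 UMIs in rich and 86 in other barcodes at P1, a ratio of 62.9 (36.1 to 104), and 125 and 91 at P7, a ratio of 220 (167 to 291). Hemgn, a nuclear protein of blood precursors, had 15 UMIs in rich and 6 in other barcodes at P1 and 52 and 4 at P7. Kel, a blood group protein, had 12 UMIs in rich and 0 in other barcodes at P1 and 46 and 4 at P7. Gata1, the erythroid transcription factor, had 0 UMIs in every barcode of both libraries, where a count of 0 allows up to 3.

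Genes were also ranked by their ratio in rich barcodes, among those with at least 20 UMIs there. The first 10 at P1 were Hbe1, Lgals5, Hba-a3, Cd52, Slc4a1, Ahsp, Alox15, RGD1309350, Rhd and Tent5c. At P7 they were Lgals5, Hba-a3, Slc4a1, Cd52, Hemgn, Alox15, Kel, Ahsp, Rsad2 and Car1. The minimum of 20 UMIs was set in the rich barcodes, and all of these genes were below 10 CPM in the other barcodes. They thus entered through the group in which they were high, and the ranking is a description only. Lgals5, a galectin known from rat reticulocytes, had 118 UMIs in rich and 25 in other barcodes at P1 and 1193 and 52 at P7. Alox15, the lipoxygenase of maturing reticulocytes, had 55 and 43 UMIs at P1 and 2690 and 230 at P7. Hbe1, an embryonic beta-type globin, led at P1 with 166 UMIs in rich and 5 in other barcodes. However, 124 of the 171 Hbe1 UMIs at P1 came from 1 barcode, which had 635 genes and 2678 haemoglobin UMIs, and P7 held 15 Hbe1 UMIs in all.

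Among other globins, Hba-a3, a further alpha-type gene, had 926 UMIs in rich and 231 in other barcodes at P1, and 6834 and 408 at P7. Cygb, the cytoglobin of fibroblasts, had a ratio of 0.892 (0.289 to 2.09) at P1 and 1.16 (0.576 to 2.08) at P7. Of 8 other globins found, only Cygb had at least 10 CPM in the other barcodes, at either age.

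The other lists were counted over their genes with at least 10 CPM in the other barcodes, a minimum set after the values had been seen. Among all genes at that minimum, 3.88% of 7547 were at least 2-fold higher in rich barcodes at P1 and 2.03% of 7670 at P7, and 13.4% and 10% at least 2-fold lower. With the minimum in whichever group was higher, 8.7% of 8360 and 4.11% of 7985 genes were at least 2-fold higher. Of 12 haem synthesis genes 9 reached the minimum, of which 5 were at least 2-fold higher at P1 and 4 at P7, and none was lower. Fech, which inserts iron into the ring, had a ratio of 8.05 (6.04 to 10.5) at P1 and 29.3 (26.4 to 32.6) at P7. Slc25a37, the mitochondrial iron importer mitoferrin, was below the minimum in other barcodes and is not in these counts. It had 12 UMIs in rich and 292 in other barcodes at P1, and 55 and 125 at P7. Alas1 had a ratio of 1.65 (0.822 to 2.96) and 0.869 (0.462 to 1.49), so the housekeeping form of the first enzyme did not reach the 2-fold limit at either age. Alas2 itself is among the rows that defined the rich barcodes. It was found in 78 of the 122 rich barcodes at P1 (63.9%) and in 261 of 384 at P7 (68.0%), with 474 and 3221 UMIs. It made up 0.138% of the UMIs of the 6 rows in rich barcodes and 0.109% in kept low cells at P1, and 0.194% and 0.142% at P7.

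Of 15 red cell membrane genes, 4 at P1 and 3 at P7 reached the minimum, of which 1 and 2 were at least 2-fold higher. Rhd, a Rhesus protein, had 67 UMIs in rich and 105 in other barcodes at P1 and 385 and 169 at P7. Of 10 erythroid regulators, Lmo2 and Zfpm1 reached the minimum, and both were higher at P1 and Lmo2 at P7. Of their UMIs in rich barcodes at P1, 98 of 101 for Lmo2 and 33 of 35 for Zfpm1 lay in barcodes with more than 500 genes. Of 14 genes of haem and iron handling 9 reached it, of which 5 and 3 were higher, among them Blvrb, a flavin and biliverdin reductase abundant in red cells, with ratios of 3.89 and 9.53, and Ftl1, ferritin light chain, with 2.13 and 5.20. No gene of these 5 lists that reached the minimum was at least 2-fold lower.

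Markers of other cells were also counted in the rich barcodes. Of 9 endothelial markers, 8 at P1 and 7 at P7 reached the minimum, of which 7 and 2 were at least 2-fold higher, and the list summed to 2069 CPM in rich against 497 in other barcodes at P1, and 749.8 against 541 at P7. Its most abundant gene there, Emcn, had 226 UMIs in rich barcodes at P1 and 274 at P7, and no marker of the list was at 0. In the gene-poor rich barcodes, however, the endothelial list summed to 179.5 CPM at P1 and 219 at P7, below the other barcodes. The P1 sum rested on few counts, with no marker above 2 UMIs. Of 11 macrophage markers 10 reached the minimum. At P1, 7 of these were higher and 1, Lyz2, was lower with a ratio of 0.0898, and at P7 0 were higher and Lyz2 was lower with 0.337. The macrophage list summed to 1071 CPM in rich and 407 in other barcodes at P1 and 449 and 379 at P7, and to 107.7 and 508 CPM in the gene-poor rich barcodes, where it was thus below the other barcodes at P1 and above them at P7. In the gene-poor rich barcodes of P1, no macrophage marker was above 2 UMIs either. Ctss was at 0 in the rich barcodes. Of 10 glial markers 9 reached the minimum, of which 7 were lower at P1 and 6 at P7. The remaining one, Fabp7, was below the minimum and is not in these counts. It had 33 UMIs in rich and 873 in other barcodes at P1, and 1 and 337 at P7. At P1 the list of 10 neutrophil markers summed to 22.6 CPM in rich and 172 in other barcodes, with 9 of the 10 at 0 in rich barcodes, S100a8, S100a9 and Camp among them, and 9 UMIs of Lcn2. At P7 it summed to 158.7 CPM in rich and 16.2 in other barcodes, with 4 markers at 0 and Ngp the most abundant with 49 UMIs. For platelets, only Pf4 of 5 markers reached the minimum, and it was higher, with 34 UMIs at P1 and 51 at P7. Of these Pf4 UMIs, 0 at P1 and 14 at P7 lay in the gene-poor rich barcodes. Ppbp was at 0. Of 6 markers of Otor-high fibrocytes, 5 at P1 and 6 at P7 reached the minimum, of which 0 were higher and 1, Otos, was lower at both ages. That list summed to 6529 CPM in rich and 8527 in other barcodes at P1, and 8310 and 9216 at P7. The part of these other cells in the haemoglobin counts was not tested.

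Kept rich barcodes were not gathered in one cluster. At P1, 13 of the 38 lay in C0, the large Otor-high fibrocytes-like cluster, where they were 0.395% of 3294 cells, and 7 lay in C17, the endothelial-like cluster, where they were 4.19% of 167 cells. At P7, 25 of the 71 lay in C10, a cluster led by Pmch that matched no marker list, where they were 2.77% of 902 cells. Its best list was that of Otor-high fibrocytes, with a mean log2 ratio of 0.639, and its second the erythroid list, with 0.387. Alox15 was among its top 10 genes. C17 at P7 held 3 among 188 cells. The genes of the haemoglobin, erythroid and marker lists had been left out of the clustering. With 30 principal components in place of 10, however, 36 of the 71 fell into 1 cluster of 381 P7 cells with a median of 685 genes, where haemoglobin reached 251551 CPM, and when P7 was clustered on its own 23 fell into 1 cluster of 252 cells. In the main clustering, no cluster met the rule for an erythroid name.

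The level of a cluster varied with the rich and middle barcodes in it. Over clusters of at least 50 cells, haemoglobin ranged from 64.2 CPM in the neurons-like C19 to 27611 CPM in C17 at P1, a ratio of 430, and from 404 CPM in the dividing C8 to 36762 CPM in C0, here with 71 cells, at P7, a ratio of 91.0. Without the rich barcodes the ratio was 66.3 at P1 and 2.62 at P7. C17 at P1 still had 4260 CPM then, since 11 of its cells were middle barcodes. Among low cells alone, the range was 49.5 to 168 CPM at P1 and 350 to 760 CPM at P7.

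As genes like the haemoglobin rows over the 15 clusters of P1, Fli1 (Pearson r = 0.891), Map3k3, Elk3, Plvap and Dnajc13 had the highest correlation among 7439 genes; C17 had the highest haemoglobin level among these clusters. Over the 16 clusters of P7, Hba-a3 (r = 0.895), LOC100365839, Eef1a1, Rasl10a and Rpl26 were the most alike among 7653 genes. Without the rich barcodes, the endothelial genes Clec14a (r = 0.941), Cdh5 and Kdr were the most alike at P1. At P7 the 5 genes most alike were then others, with no r above 0.805, and Hba-a3 was not among them. These correlations describe clusters that share a library.

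Haemoglobin was also found, at a low count, in cells of every cluster. Among the kept low cells, 12700 at P1 and 12387 at P7, the mean was 0.864 haemoglobin UMIs per cell at P1 and 3.93 at P7, with a median of 1 and 4. At P1, 44.4% of these cells had none, where an even (Poisson) spread of the same UMIs over the same cells gives 42.1%. At P7, 4.57% had none, where it gives 1.96%. The variance was 1.33 times the mean at P1 and 1.58 times at P7, against 1 for an even spread, although the limit of 20 UMIs had removed the highest counts. In all kept cells together it was 5876 and 5931 times the mean, and the 1% of cells with most haemoglobin held 93.5% of its UMIs at P1 and 88.0% at P7. Alas2 in low cells was found as 12 UMIs in 12 cells at P1 and 69 in 69 cells at P7.

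**Figure D2:**
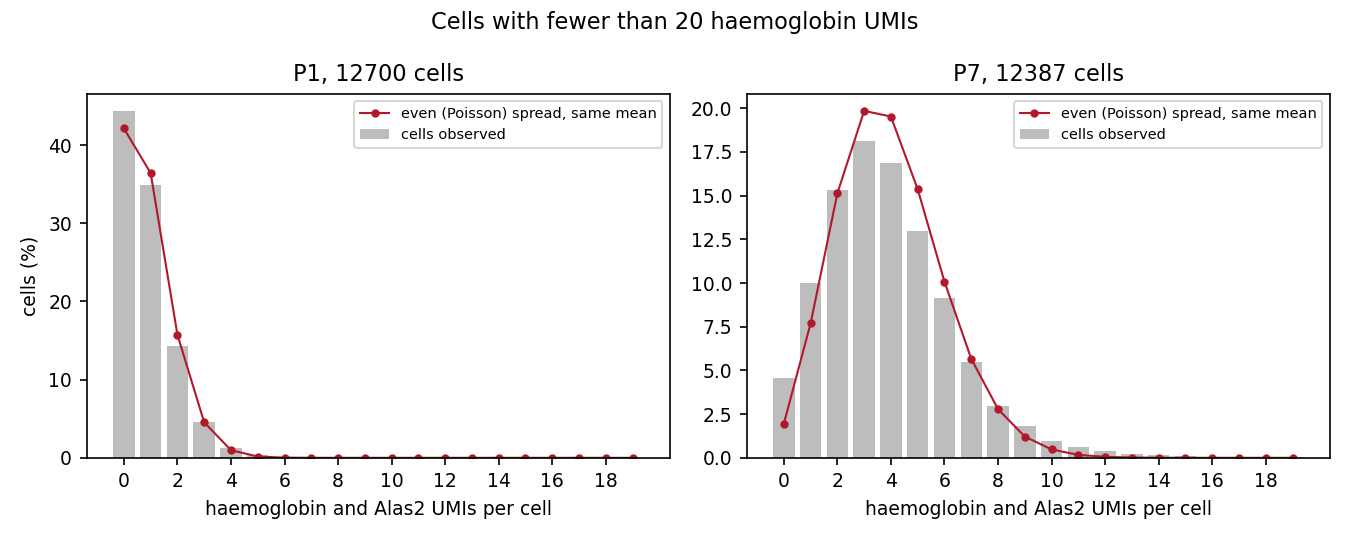
Percent of kept cells (vertical axis) by their number of haemoglobin and Alas2 UMIs, for cells with fewer than 20, at P1 (12700 cells) and P7 (12387 cells). Bars are the observed cells and the line an even (Poisson) spread with the same mean; the P1 cells gather at 0 and 1 and the P7 cells at 2 to 5, with more cells at 0 than on the line.

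The mean per low cell differed by less than 2-fold between the clusters of an age, in cells that the limit of 20 UMIs had selected. At P1 it ran from 0.732 (0.525 to 0.993) in the unnamed C21 to 1.30 (1.13 to 1.50) in the endothelial-like C17, a ratio of 1.78 over 15 clusters. The interval of C17 lay above those of 11 of the other 14 clusters and overlapped with the unnamed C18, the neurons-like C19 and the unnamed C20. At P7 the mean ran from 2.87 (2.48 to 3.30) in C0 to 4.22 (4.03 to 4.41) in the glia-like C15, a ratio of 1.47 over 16 clusters. There, C0, with 68 low cells, lay below all 15 others. Glia-like, fibroblast-like, epithelial-like, macrophages-like and endothelial-like cells of P7 thus all had means between 3.73 and 4.22.

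**Figure D3:**
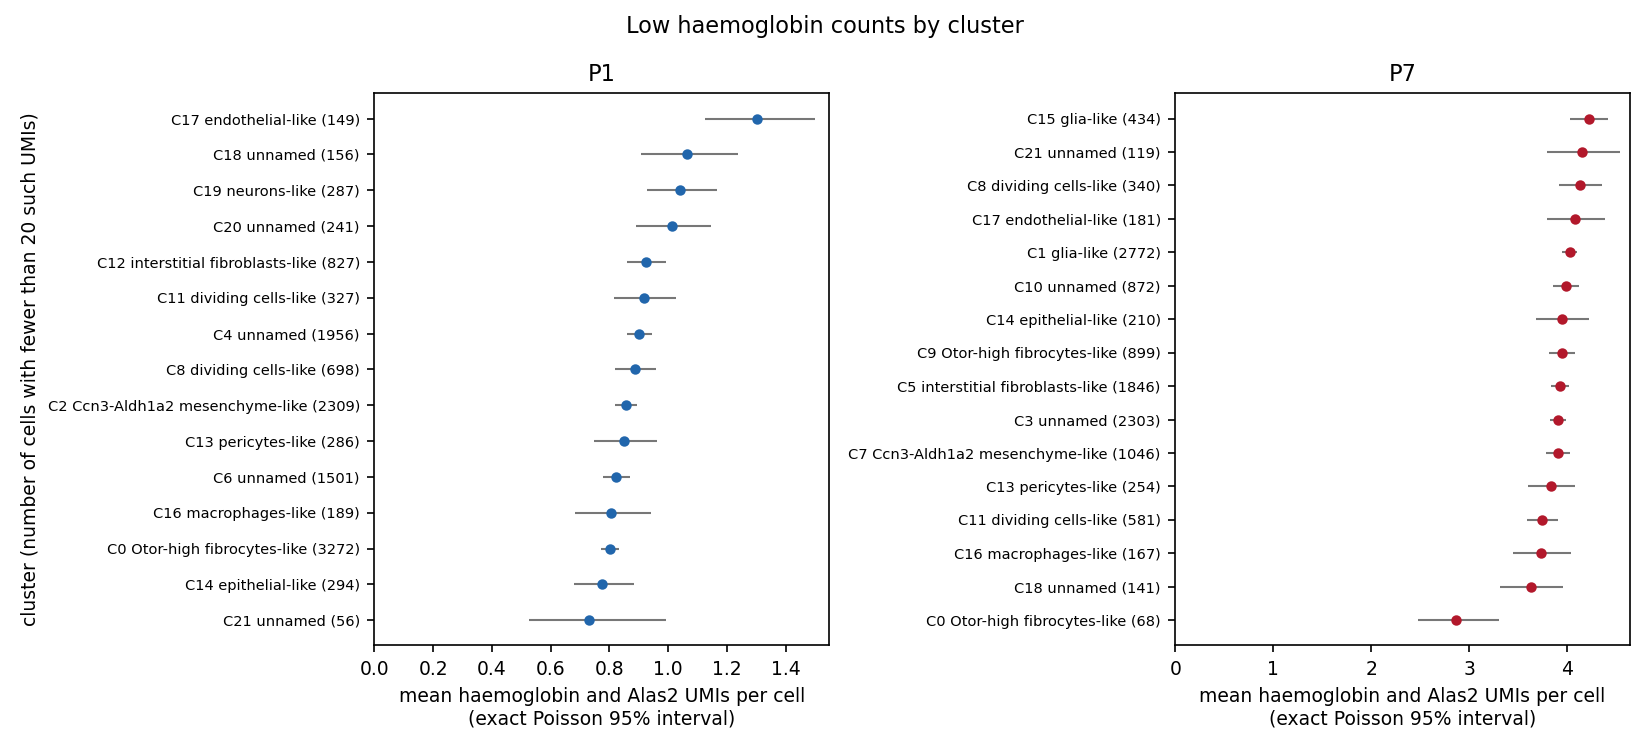
Mean haemoglobin and Alas2 UMIs per low cell (horizontal axis) in each cluster of at least 50 cells at P1 and P7, with exact Poisson 95% intervals as bars and the number of low cells in parentheses. Means run from 0.732 to 1.30 at P1 and from 2.87 to 4.22 at P7.

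For comparison, restricted genes were measured outside their own class. Stmn2, a neuronal gene, had means in low cells of 13 P1 clusters outside neurons that differed by 2.32 times. Lyz2, the lysozyme of macrophages, differed by 11.5 times over 15 P7 clusters outside macrophages. These genes were not limited in count, whereas the low cells were chosen for fewer than 20 haemoglobin UMIs, so their ranges and that of haemoglobin cannot be compared directly. In all kept cells the mean of haemoglobin differed by 356 times over clusters at P1 and 45.5 times at P7. Both genes were lower in count than haemoglobin in low cells, and Lyz2 at P1 and Stmn2 at P7 were at 0 in at least 1 cluster.

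The low count rose with the depth of the cell, but less than the depth itself. Low cells were split by total UMIs into 10 groups of equal size. From the shallowest to the deepest group, mean depth rose 6.97 times at P1 and 8.60 times at P7, while mean haemoglobin UMIs rose from 0.739 to 1.11 at P1, or 1.50 times (1.38 to 1.63), and from 3.22 to 4.18 at P7, or 1.30 times (1.24 to 1.35). Scaled to depth, the level therefore fell from 282 to 60.7 CPM at P1 and from 1743 to 263 CPM at P7. Outside its own class, the mean of Stmn2 rose 1.65 times at P1 (1.40 to 1.94), an interval that overlapped with that of haemoglobin, and that of Lyz2 rose 2.42 times at P7 (1.60 to 3.76). Stmn2 at P7 and Lyz2 at P1 had only 5 and 3 UMIs in the shallowest group, against 141 and 50 in the deepest. Barcodes without a cell were not among the files used here, so the free RNA was not measured directly.

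**Figure D4:**
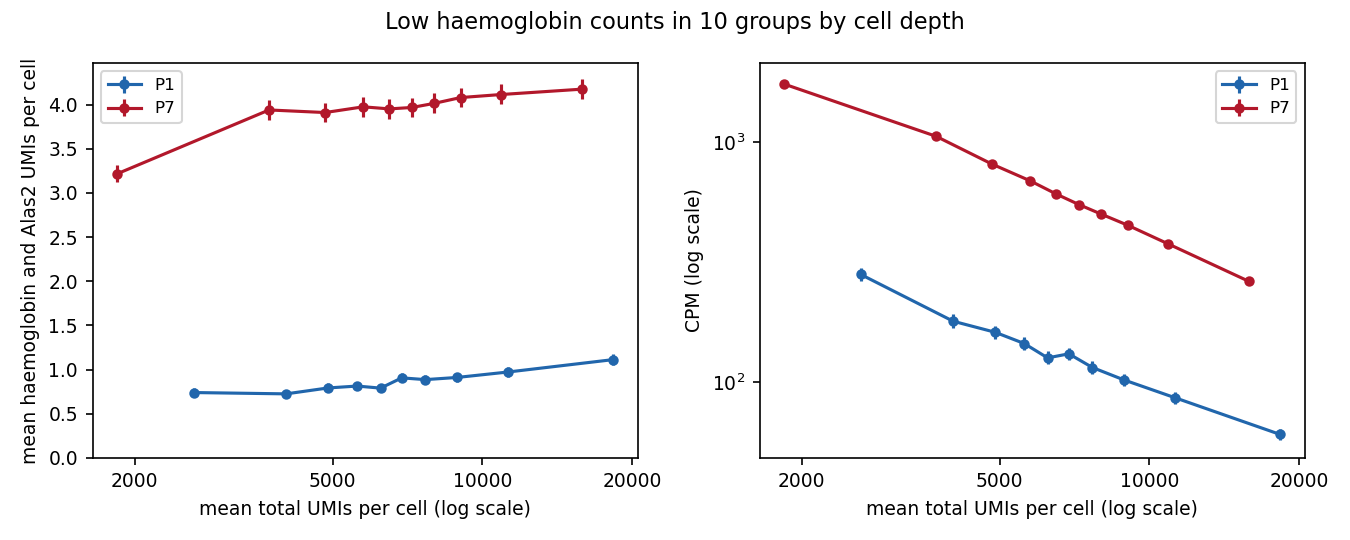
Left, mean haemoglobin and Alas2 UMIs per low cell, and right, the same UMIs as CPM (log scale), against mean total UMIs per cell (log scale) in 10 groups of equal size by depth, at P1 (blue) and P7 (red). Bars are exact Poisson 95% intervals; the mean rises 1.50 and 1.30 times over the depth range and the CPM falls 4.64 and 6.63 times.

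After thinning to 2000 UMIs, 22.8% of kept cells at P1 (22.1 to 23.6) and 66.2% at P7 (65.4 to 67.1) had a haemoglobin UMI, with 252 and 711 shallower cells left out. Without thinning the shares were 55.9% and 95.5%. For low cells by cluster, the thinned share was lowest at P1 in the neurons-like C19, at 5.57% with a median depth of 21179 UMIs, and higher in the shallower, unnamed C6, at 30.5% with 4047 UMIs. At P7 it was lowest in the epithelial-like C14, at 47.9%, and highest in the glia-like C1, at 77.2%, with median depths of 6962.5 and 4531.5 UMIs.

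Between the ages, haemoglobin was higher at P7 in all barcodes, in kept cells and in kept low cells. In all barcodes its CPM at P7 was 4.72 times that at P1 (4.71 to 4.74), in kept cells 2.75 times (2.73 to 2.76) and in kept low cells 4.72 times (4.63 to 4.82). Per low cell, without scaling to depth, the mean was 4.55 times higher. Middle barcodes held 59453 haemoglobin UMIs at P1 and 21344 at P7. Of the P1 UMIs, 46032 lay in 23 barcodes outside the limits of the study, 20 of them over the gene limit. Among kept cells the middle barcodes held 13421 UMIs in 41 cells at P1 and 19748 in 123 cells at P7. In kept cells, the 3 beta-type rows were higher at P7 by 3.27 times for LOC103694857, 3.62 for LOC689064 and 3.20 for Hbb, and the Hba-a2 rows by 1.59 for the first and 2.14 for the second. Of the 6 rows, 4 were thus at least 2-fold higher, where 9.74% of 8222 genes were at least 2-fold higher and 6.57% at least 2-fold lower. The median log2 ratio was 1.68 over the 5 rows above 10 CPM and 0.13 over all genes. Alas2, at 2.03 CPM and 9.39 CPM, stayed below that minimum.

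Other genes of the pathway were also compared between the ages in kept cells. Among all 8222 genes at the minimum, 9.74% were at least 2-fold higher at P7 and 6.57% at least 2-fold lower. Of 15 haem and iron handling rows, 1 was higher and 1 lower, with 5 below the minimum. The 15 red cell membrane genes also had 1 higher and 1 lower, with 11 below the minimum. Of the 12 haem synthesis genes, 9 lay within 2-fold between the ages, 3 were below the minimum and 0 were past 2-fold. These lists are too short for such counts to be told from the shares over all genes. All 14 erythroid markers were below the minimum in kept cells, with a summed level of 6.80 CPM at P1 and 13.1 CPM at P7. Among other globins Hba-a3 was 5.37 times higher at P7 (4.81 to 6.01), from 3.88 to 20.8 CPM. Tfrc, the transferrin receptor, was lower at P7 with a ratio of 0.485 (0.434 to 0.541), and so was Epb41, a membrane skeleton protein, with 0.325 (0.297 to 0.354). Aqp1, a water channel of red cells and of many other cells, was 2.36 times higher, and 1 of the 2 rows of Slc40a1, the iron exporter ferroportin, 2.59 times.

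The balance of chains also differed between the ages. In rich barcodes the alpha-type rows made up 43.7% of globin UMIs at P1 (43.5 to 43.9) and 32.8% at P7 (32.7 to 32.9). In kept low cells it was 42.3% at P1 (41.4 to 43.2) and 26.2% at P7 (25.8 to 26.6). The low cells were thus slightly below the rich barcodes at P1 and further below them at P7. Over clusters, the alpha-type share in low cells ran from 38.9% to 45.7% at P1 and from 22.1% to 28.7% at P7. Among the beta-type UMIs, LOC103694857 took 69.2% in rich barcodes and 68.4% in kept low cells at P1, and 69.5% and 68.8% at P7. LOC689064 took 25.3% and 24.96% at P1, and 25.1% and 25.7% at P7.

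**Figure D5:**
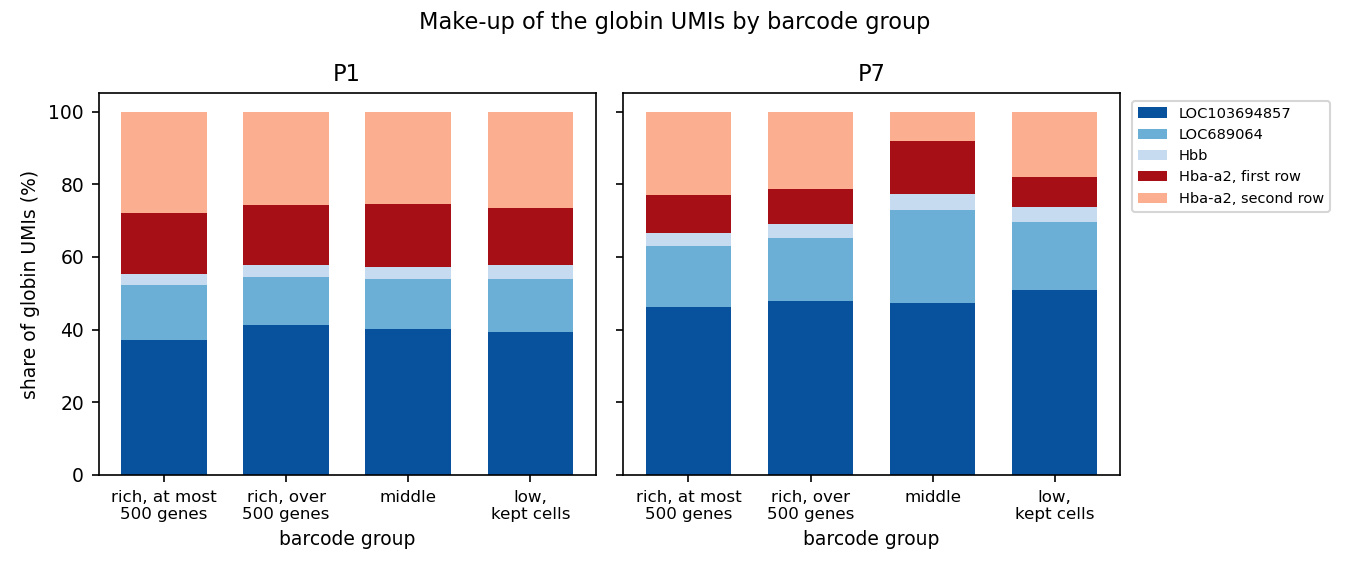
Share of globin UMIs (percent) from each row in rich barcodes with at most 500 genes, rich barcodes with more, middle barcodes and kept low cells, at P1 and P7. Beta-type rows are blue and Hba-a2 rows red; the alpha-type share is lower at P7 in every group, and the first Hba-a2 row is largest among alpha UMIs in the middle barcodes of P7.

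The use of the 2 Hba-a2 rows varied with the amount of haemoglobin in a barcode. Barcodes with 20 or more haemoglobin UMIs were split by that number, at limits chosen after the values had been seen. Where a P7 barcode held 5000 or more, the first row made up 29.9% of alpha UMIs and was the larger of the 2 rows in 0 of 170 barcodes. From 1000 to under 5000 it made up 34.3%, and was the larger in 20 of 110 barcodes. From 100 to under 1000 it made up 61.0% (60.2 to 61.8), and was the larger in 104 of the 138 barcodes with at least 10 alpha UMIs. P1 had the same order, with 37.4% at 5000 or more (larger in 0 of 19 barcodes), 37.9% from 1000 to under 5000 (11 of 89) and 50.8% from 100 to under 1000 (29 of 51).

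Alas2 moved with the same split. At P7 there were 2.13 Alas2 UMIs per 1000 haemoglobin UMIs in barcodes with 5000 or more, 1.39 from 1000 to under 5000 and 0.512 from 100 to under 1000. At P1 these values were 1.62, 1.39 and 0.783. Every one of the 170 and 19 barcodes with 5000 or more held an Alas2 UMI, against 17 of 153 at P7 and 9 of 52 at P1 from 100 to under 1000. Since the split itself sets how many UMIs a barcode had in which Alas2 could be found, these shares add nothing to the rates. At P7 the alpha-type share was 32.6% at 5000 or more, 35.0% from 1000 to under 5000 and 23.1% from 100 to under 1000. At P1 it was 41.3%, 44.9% and 44.5%. From 20 to under 100 haemoglobin UMIs it was lower at both ages, 21.6% in 93 barcodes at P7 and 32.3% in 26 barcodes at P1 (29.5 to 35.2). In kept low cells the first row made up 37.4% of alpha UMIs at P1 (36.0 to 38.8) and 31.2% at P7 (30.4 to 32.0), near the barcodes with most haemoglobin and below those with 100 to under 1000.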

How the data were processed

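The authors made 1 library per age with the 10x Chromium 3' kit (V3) and used Cell Ranger 3.1.0 with the rn6 build for alignment and counting. What they deposited were raw UMI counts, as whole numbers for each gene in each barcode. Per the study's methods, the cell suspension was treated with a red blood cell lysis buffer. Removal of doublets or of free RNA is not given in the sources used here. Summed over all barcodes, 114285848 UMIs were counted for P1 and 101264868 for P7, and a count of 0 allows up to 3 counts.

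All barcodes were read. Kept cells, by the limits of the study, had over 500 but under 5000 genes, 500 UMIs or more and a mitochondrial share under 25%, which left 12779 and 12581 cells. The study states a somewhat higher number for P1 and a lower one for P7, so its set of cells was not the same. They were clustered in Seurat 5.3.0 (R 4.3.3, Matrix 1.6.5) after log normalization to 10000, on 10 principal components, with 20 neighbours and a resolution of 0.8. Of 2000 variable genes 1862 were used, since 200 rows of the gene and marker lists were left out. This gave 23 clusters, C0 to C22. A cluster was named with the ending -like where its best marker list had a mean log2 ratio of at least 1, at least 3 markers in at least 10% of cells and at least 1 marker among its top 10 genes, and no other list had more there. This naming rule, the limit of 20 UMIs and the split by haemoglobin UMIs were set after the data had been seen. Cluster names were rebuilt here and may differ from those of the study. Scrublet (scanpy 1.11.5) was run for doublets on the kept cells, and its calls were left out only as an alternative.

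CPM are UMIs scaled to 1e6, and ratios between ages or barcode groups used no pseudocount. With 1 library per age no test was run. Intervals are exact (Poisson, Clopper-Pearson and conditional binomial) and cover counting error only. Genes past 2-fold were counted among those with at least 10 CPM in the higher group and, for lists in rich barcodes, in the other barcodes. Named genes were every haemoglobin row, the genes of 5 fixed lists with at least 10 CPM, the markers, the 5 genes most alike over clusters and the 10 with the highest ratio in rich barcodes. Genes and lists were chosen with earlier results of these data known. Thinning and fold counts were tested on simulated data. Python 3.11.15, numpy 2.4.6, scipy 1.17.1, pandas 2.3.3 and matplotlib 3.10.9 were used. RefSeq sequences came from the GRCr8 build.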

Additional observations from a re-analysis of the deposited data

How the results depend on the processing

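No paired analysis was possible because each age had 1 library. The P7 to P1 ratio in kept cells, 1.46 on the log2 scale, stayed above 0 in every alternative: it was 2.24 in all deposited barcodes, 1.56 with a mitochondrial limit of 10%, 1.51 without doublets, 2.35 without the 1% of cells with most haemoglobin UMIs, 1.44 without barcodes of both libraries, 1.57 without rich barcodes and 1.38 when scaled without haemoglobin, ribosomal protein and mitochondrial genes. In the same order without the last, the level was 3627, 1907, 1773, 109.5, 1615 and 250.1 CPM at P1 and 17133, 5629, 5040, 557.5, 4386 and 742 CPM at P7. The share of UMIs in the top 1% of cells was 95.7%, 94.4%, 93.8% and 5.08% at P1 and 67.0%, 90.6%, 88.6% and 6.59% at P7 in the first 4 of these, and 57.4% and 28.9% without rich barcodes. The alpha to beta ratio, 0.747 at P1 and 0.430 at P7, was 0.771 and 0.481 in all barcodes, 0.731 and 0.354 without the top 1%, and 0.788 and 0.337 without rich barcodes. It was 0.755 at P1 without shared barcodes and 0.438 at P7 with the limit of 10%.

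Of cells thinned to 1000 UMIs 12.7% at P1 and 45.3% at P7 had a haemoglobin UMI, of cells thinned to 4000 it was 37.3% and 83.9%, and without thinning 55.9% and 95.5%. The P7 share was 62.9% with the limit of 10% and 67.4% without doublets. With 50 in place of 20 UMIs as the limit, the mean of low cells was 0.897 at P1 and 4.05 at P7, and with 10 it was 3.71 at P7. Rich barcodes numbered 38 and 71 among kept cells only.

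The highest cluster at P1, 27611 CPM, was at 32388 without doublets, 38941 when scaled without the genes above and 4260 without rich barcodes. At P7, 36762 CPM, it was at 46915 with a resolution of 0.4, 56325 with 1.2, 251551 with 30 principal components, 218595 with P7 on its own, 53374 in the other scaling and 1058 without rich barcodes. The highest to lowest ratio at P1 was 507 without doublets, 375 with a resolution of 0.4, 377 with 30 components, 3.31 without the top 1% and 66.3 without rich barcodes. At P7 it was 116 and 145 with resolutions of 0.4 and 1.2, 476 with 30 components, 365 on its own, 2.18 without the top 1% and 2.62 without rich barcodes. The highest alpha to beta ratio of a cluster, 0.959 at P1 and 0.467 at P7, was 0.906, 0.896 and 1.08 at P1 and 1.34, 0.596 and 0.533 at P7 with resolutions of 0.4 and 1.2 and 30 components, and 0.565 at P7 on its own, so with a resolution of 0.4 it was higher at P7 than at P1. Genes past the fold, 801 higher and 540 lower at P7, numbered 238 and 144 at 50 CPM, 1414 and 1461 at 1 CPM, and 116 and 94 at 4-fold. Genes at least 2-fold higher in rich barcodes numbered 727 at P1 and 328 at P7 with the minimum of 10 CPM in the higher group, and 293 and 156 with that minimum in the other barcodes. This last alternative, those without rich barcodes and those for the limit of 20 UMIs were chosen after seeing the data. The other 42 values moved by less than their interval or, for counts, by less than 1.5 times. The cause of the moves was not tested.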

Other observations

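In 4 of the 64 middle barcodes at P1 and 1 of the 142 at P7, 80% or more of the haemoglobin UMIs came from a single row, LOC689064 in 3 of the 4 and in the 1 at P7 and LOC103694857 in the other. Among rich barcodes this was so in 0 of 122 at P1 and 1 of 384 at P7.

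The neutrophil list in kept cells summed to 196.5 CPM at P1 and 15.4 CPM at P7. Macrophage markers summed to 469 and 361 CPM.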
